A study of Homo sapiens with 33 samples.

Results

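The Iroquois homeobox genes IRX1, IRX2, IRX3, IRX4, IRX5 and IRX6 were followed through a gonadal differentiation of human embryonic stem cells in which FOXL2 was switched on. They were taken by their gene symbols and are 6 of the 58735 genes in the count table. All 6 were found, and their values were read in all 33 libraries. The cells were H9-DDdCas9VP192-FOXL2 clone 24, a single clone of the H9 embryonic stem cell line that carries an inducible dead Cas9 activator and guide RNAs aimed at the FOXL2 promoter. The activator and the guides were present in every group. Cells were collected on day 4, before induction, and then every other day from day 6 to day 14, either without induction (CTRL) or with doxycycline (DOX) and trimethoprim (TMP) added from day 4 (IND). Each of the 11 groups held 3 wells of one differentiation, described as technical replicates, so every p-value measures the spread between wells only. No group received DOX and TMP without the FOXL2 guides, so an effect of both compounds and an effect of FOXL2 cannot be told apart here.

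Iroquois genes encode transcription factors of the TALE class, whose homeodomain has an extended loop between helices. In vertebrates they lie in a pair of clusters that arose by duplication, and members of a cluster share long-range enhancers and often overlap in where they are expressed. They are known for patterning the neural tube, heart, limb and kidney. In the mouse ovary, Irx3 and Irx5 are expressed in the somatic cells around the oocytes and are needed for sound follicles.

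Libraries held between 23940837 and 51912815 counts, with a median of 41420455. Levels are given as CPM, the counts of a gene scaled to the size of its library. FOXL2, the targeted gene, averaged 525 CPM in day 6 IND and 172 CPM in day 14 IND, and at most 0.210 CPM on average in any CTRL group. Replicate 2 of day 10 IND stood apart from the other wells: its log2 CPM correlated with its 2 replicates at a mean of 0.8935. It was also the library with the fewest counts, and the day 10 values of the Iroquois genes are therefore given with and without it.

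On GRCh38, with the coordinates of the count table, the chromosome 5 cluster ran from chr5:1877413 to 3601403 and held IRX4 (minus strand, chr5:1877413-1887236), IRX2 (minus strand, chr5:2745845-2751662) and IRX1 (plus strand, chr5:3596054-3601403). The chromosome 16 cluster ran from chr16:54283304 to 55330760 and held IRX3 (minus strand, chr16:54283304-54286763), IRX5 (plus strand, chr16:54930862-54934485) and IRX6 (plus strand, chr16:55323760-55330760). Neighbours within a cluster were separated by 858608 and 844391 bases on chromosome 5 and by 644098 and 389274 bases on chromosome 16.

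Both clusters pair an Iroquois gene with a gene read in the opposite direction. C5orf38 starts 468 bases from IRX2, and the long non-coding RNA gene CRNDE starts 1672 bases from IRX5. The libraries were not strand-specific, so reads from IRX1, IRX3, IRX4 or IRX6 and from the annotated antisense RNA that overlaps each of them cannot be told apart. Members of the family also resemble one another. Over the 189 bases of transcript that encode the homeodomain, IRX1 and IRX3 were 94.2% identical and IRX2 and IRX5 93.7%, whereas the neighbours IRX1 and IRX2 were 89.4% identical and IRX3 and IRX5 89.9%. The longest run of bases shared by an IRX3 and an IRX5 transcript was 134, the longest of any pair. The paper reports paired-end reads longer than this run. The run by itself therefore does not make a full-length read match IRX3 and IRX5 equally well. Read assignment between IRX3 and IRX5 was not tested.

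RefSeq promoter sequences (GRCh38.p14) were at hand for 3 of the 6 genes, IRX1, IRX2 and IRX4. The 250 bases before the RefSeq start of IRX1 (chr5:3595582-3595831, plus strand) and of IRX2 (chr5:2751678-2751927, minus strand) are shown because these are the expressed genes of the chromosome 5 cluster, and both were lower in IND than in CTRL at some time. Capitals mark CG dinucleotides.
IRX1 promoter: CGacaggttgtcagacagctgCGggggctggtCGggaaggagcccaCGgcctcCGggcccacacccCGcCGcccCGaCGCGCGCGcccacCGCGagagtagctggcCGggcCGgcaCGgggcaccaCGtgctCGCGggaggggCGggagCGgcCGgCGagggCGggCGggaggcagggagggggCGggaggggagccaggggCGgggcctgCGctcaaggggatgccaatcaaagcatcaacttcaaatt
IRX2 promoter: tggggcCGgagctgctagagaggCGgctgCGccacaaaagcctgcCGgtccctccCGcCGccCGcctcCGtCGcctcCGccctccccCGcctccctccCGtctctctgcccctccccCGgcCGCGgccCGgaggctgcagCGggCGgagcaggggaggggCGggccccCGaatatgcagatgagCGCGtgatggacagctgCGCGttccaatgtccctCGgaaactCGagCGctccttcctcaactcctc
The IRX1 sequence holds 29 CG dinucleotides and the IRX2 sequence 27. Their observed to expected CpG ratios were 0.845 and 0.835, against a median of 0.558 over 35116 promoters of the same length. The forkhead core GTAAACA was in neither sequence on either strand, nor in any of the 3 IRX4 promoters. Of all promoters, 2.98% held it.

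IRX1, IRX2, IRX3 and IRX5 were expressed, whereas IRX4 and IRX6 were near the limit of detection. Averaged over the 33 libraries, IRX3 reached 52.9 CPM, IRX2 32.1 CPM, IRX5 7.75 CPM and IRX1 4.92 CPM. IRX6 averaged 0.186 CPM and was at 3 counts or fewer in 11 libraries. IRX4, the ventricular heart member of the family, averaged 0.0596 CPM and was at 3 counts or fewer in 22 libraries, of which 13 had none. In FPKM, which are per length, IRX3 made up a median of 53.5% of the summed Iroquois FPKM of a library and IRX2 29.2%, with 7.93% for IRX1 and 7.89% for IRX5. IRX3 was the leading member in day 4 with a mean share of 63.8% of the summed FPKM. In CTRL its mean share was 57.2% on day 6 and 37.2% on day 14, while that of IRX1 was 6.36% on day 6 and 19.7% on day 14. In day 14 IND the mean share of IRX3 was 45.2% and that of IRX1 11.1%. The mean share of IRX5 on day 14 was 8.86% in CTRL and 13.4% in IND.

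**Figure D1:**
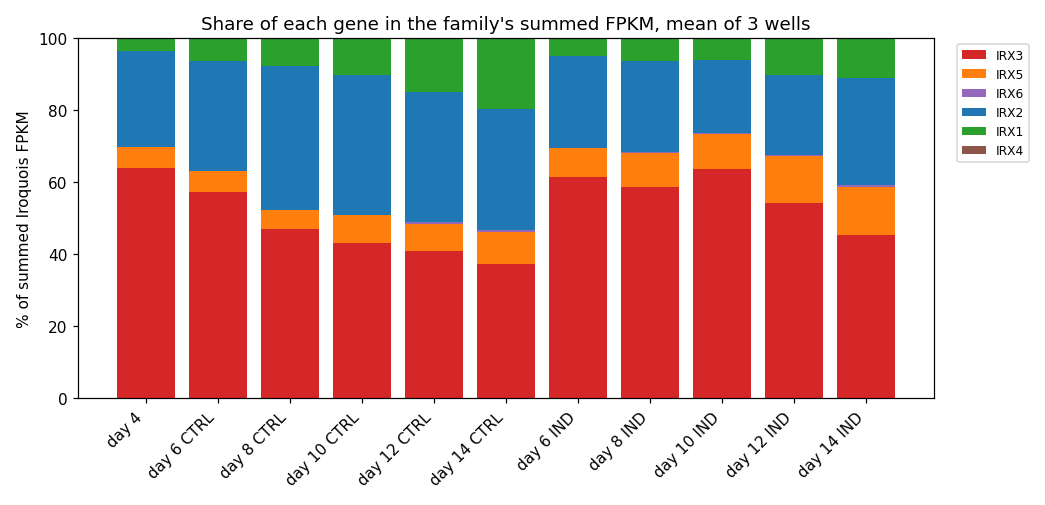
Stacked bars of the share of each Iroquois gene in the summed Iroquois FPKM of a library (y axis, percent), as the mean of 3 wells for day 4, the 5 CTRL groups and the 5 IND groups. IRX3 falls from 63.8% on day 4 to 37.2% in day 14 CTRL and stands at 45.2% in day 14 IND; IRX4 and IRX6 are too thin to see.

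The first comparison asked how the genes moved as the cells differentiated without induction, with CTRL of each day set against day 4 by edgeR's quasi-likelihood test and Benjamini-Hochberg adjustment over all genes. Both expressed chromosome 16 genes fell, and so did IRX2, whereas IRX1 rose, with a call on day 14 only. IRX3 was at 108, 80.0 and 153 CPM in the day 4 wells. It was at 93.5, 50.4 and 88.4 CPM in day 6 CTRL, 40.3, 34.1 and 42.3 CPM in day 8 CTRL, and 29.99, 28.5 and 29.1 CPM in day 10 CTRL. From day 8 on, no CTRL well overlapped the day 4 wells, as for 51.2%, 57%, 59.1% and 58.2% of all genes on days 8, 10, 12 and 14. IRX3 was called lower on days 8, 10, 12 and 14 (edgeR log2 fold changes -1.59 ± 0.21 (SE), -2.01 ± 0.20, -2.25 ± 0.25 and -2.13 ± 0.26, adjusted p = 0.000519, 7.81e-05, 0.000164 and 0.000155), but not on day 6, where leaving out the lowest day 4 well, replicate 2, gave a call (-0.77, adjusted p = 0.0487), as did testing without the filter on low counts (-0.57, adjusted p = 0.00278). Of all genes tested, 37.1%, 45.1%, 48.1% and 47.6% were called on those 4 days, so such a call is common in these cells.

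IRX5, the other expressed chromosome 16 gene, was at 9.89, 9.18 and 10.8 CPM on day 4 and at 4.36, 3.72 and 4.95 CPM in day 8 CTRL. Its CTRL wells lay below all day 4 wells on days 8 to 14, when wells did not overlap for 51.2% to 59.1% of all genes. The edgeR log2 fold change was -1.24 ± 0.18 on day 8 (adjusted p = 0.00077) and -0.71 ± 0.25 on day 14 (adjusted p = 0.04), where the call was lost without either of 2 day 4 wells (replicates 1 and 3) or either of 2 CTRL wells (replicates 1 and 3). IRX2 was at 50.5, 38 and 77.8 CPM on day 4 and at 31.1, 22.1 and 22.5 CPM in day 12 CTRL. IRX2 was called lower on days 10, 12 and 14, with edgeR log2 fold changes of -0.91 ± 0.22, -1.19 ± 0.25 and -1.06 ± 0.24 (adjusted p = 0.00894, 0.00465 and 0.00562). Without day 4 replicate 2 it was also called on day 8 (-0.78, edgeR adjusted p = 0.00763), as it was by DESeq2 (adjusted p = 0.0422) and in a single edgeR fit over all 33 libraries (adjusted p = 0.0182).

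IRX1 rose where its neighbour IRX2 fell. It was at 3.11, 3.22 and 5.73 CPM on day 4 and at 7.92, 13.0 and 6.55 CPM in day 14 CTRL. All 3 of these CTRL wells lay above day 4, as wells did not overlap for 58.2% of all genes. The edgeR log2 fold change was 1.14 ± 0.33 (adjusted p = 0.0177), and the call was lost without day 4 replicate 1 or without the highest well, day 14 CTRL replicate 2 (0.80, adjusted p = 0.0809). Without day 4 replicate 3, the highest day 4 well, IRX1 was also called higher on days 6 and 12 (0.75 and 0.82, edgeR adjusted p = 0.0477 and 0.0247). IRX6 had 0 counts in all 3 day 4 wells and 15, 11 and 15 counts in day 14 CTRL. Its mean of 0.468 CPM in day 14 CTRL was at least 4.42-fold higher than the level that 3 counts would give in the shallowest day 4 library, and edgeR called it (adjusted p = 0.00233). IRX6 passed the filter on low counts only through its day 14 wells, so this call is not independent support for a rise. With a mean of at least 50 counts required, it was not tested. IRX4 ran the other way on a few counts, with 6, 4 and 10 on day 4 and 5, 1 and 5 in day 12 CTRL. It passed the filter on low counts in no comparison and was not tested.

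The steps between neighbouring CTRL days placed these falls. Between day 6 and day 8, IRX3 fell by 1.01 ± 0.24 and IRX5 fell by 0.83 ± 0.20 on the log2 scale (edgeR adjusted p = 0.0325 and 0.00999), on a step where 16.6% of all genes were called. Between day 8 and day 10, IRX3 fell by 0.43 ± 0.09 and IRX2 fell by 0.35 ± 0.09 (edgeR adjusted p = 0.00389 and 0.0152), where 10.6% of all genes were called. No member was called between days 10 and 12 or between days 12 and 14, where 2.03% and 0.0458% of all genes were, except IRX1 between days 12 and 14 without the filter on low counts (0.66, edgeR adjusted p = 0.0139). These 4 calls became 1 without day 8 CTRL replicate 1 and 2 without day 6 CTRL replicate 3. The fall of IRX3 between days 6 and 8 was also lost without day 6 CTRL replicate 1 or day 8 CTRL replicate 3, and that of IRX2 between days 8 and 10 without day 10 CTRL replicate 3. In a single edgeR fit over all 33 libraries, neither IRX3 nor IRX2 was called between days 8 and 10 (adjusted p = 0.82 and 0.662). That fit also lost IRX5 between days 6 and 8 (adjusted p = 0.0742). By limma on log2(FPKM + 1), IRX2 was not called between days 8 and 10 (adjusted p = 0.0654). Calls were gained without day 6 CTRL replicate 2, where IRX1 and IRX2 were lower on day 8, and without day 12 CTRL replicate 1, where IRX2 and IRX3 were lower on day 12 and 4.34% of all genes were called.

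**Figure D2:**
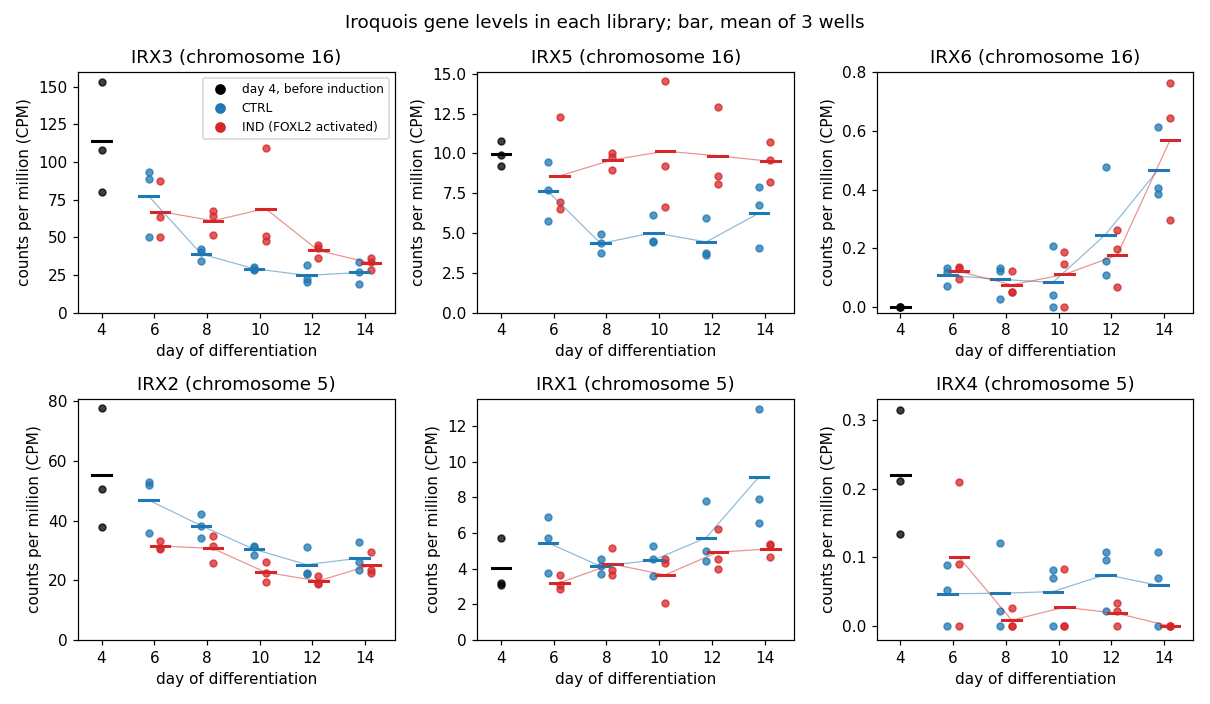
Level of each Iroquois gene (y axis, CPM, one panel per gene with its own scale) against the day of differentiation, with 1 point per well in day 4 (black), CTRL (blue) and IND (red) and a bar at the mean of 3 wells. The mean of IRX3 goes from 77.4 CPM on day 6 to 38.9 CPM on day 8 in CTRL. In IND it is 67.1 CPM on day 6, 61.0 CPM on day 8, 69.1 CPM on day 10 and 32.9 CPM on day 14. IRX5 stays between 8.59 and 10.1 CPM on average in IND, and IRX2 lies lower in IND than in CTRL on average on every day.

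The central comparison asked what FOXL2 activation did, with IND set against CTRL of the same day. In 21 tests of a member on a day, edgeR called 6. IRX3 and IRX5 were higher in IND on days 8 and 12, IRX2 was lower on day 6 and IRX1 was lower on day 14. Of all genes tested, 3.66%, 14.2%, 2.03%, 5.42% and 8.43% were called on the 5 days in turn. The median log2 fold change of all genes lay between -0.01 and 0.02 on every day. A bulk level cannot tell fewer cells of a type from less RNA per cell.

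IRX5 had the largest change of any member on days 8 and 12. On day 8 it was at 8.98, 9.79 and 10.0 CPM in IND against 4.36, 3.72 and 4.95 CPM in CTRL. All 3 IND wells lay above all CTRL wells, as wells did not overlap for 33.2% of all genes that day. The edgeR log2 fold change was 1.15 ± 0.16 (2.22-fold, adjusted p = 0.000772), it lay between 0.79 and 1.25 under 13 alternatives, and each of them kept the call. On day 12 IRX5 was at 8.60, 12.9 and 8.07 CPM in IND against 5.95, 3.73 and 3.64 CPM in CTRL. The wells again did not overlap, as for 30.4% of all genes that day, and the log2 fold change was 1.16 ± 0.26 (edgeR adjusted p = 0.0385), a call that was lost without either of 2 CTRL wells (replicates 2 and 3) or IND replicate 2, with adjusted p from 0.109 to 0.156, and by limma on log2(FPKM + 1) (0.79, adjusted p = 0.0665).

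On day 14 IRX5 was at 10.7, 9.57 and 8.21 CPM in IND against 6.78, 7.89 and 4.05 CPM in CTRL. The wells did not overlap, as for 26.7% of all genes that day, and the difference of 0.60 ± 0.22 was not called (edgeR adjusted p = 0.13), although it was without the filter on low counts (adjusted p = 0.0211). On day 6 the IND wells, at 12.3, 6.52 and 6.95 CPM, overlapped those of CTRL, at 7.67, 5.76 and 9.43 CPM (edgeR adjusted p = 0.843).

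IRX3, the member with the highest level, was higher in IND on days 8 and 12. On day 8 it was at 51.5, 63.9 and 67.7 CPM in IND against 40.3, 34.1 and 42.3 CPM in CTRL. The wells did not overlap, as for 33.2% of all genes, and the log2 fold change was 0.66 ± 0.12 (1.58-fold, edgeR adjusted p = 0.00416). A single fit over all 33 libraries, which shares one spread among all groups, gave 0.65 with an adjusted p of 0.216. On day 12 IRX3 was at 42.7, 45 and 36.1 CPM in IND against 31.6, 20.3 and 22.2 CPM in CTRL, and the log2 fold change was 0.75 ± 0.18 (edgeR adjusted p = 0.0483). This call sat at the threshold: 9 of 13 alternatives lost it, with values from 0.63 to 0.96 throughout, among them leaving out CTRL replicate 2 or 3 or any one of the IND wells. On day 14 the wells overlapped, at 36.3, 33.9 and 28.4 CPM in IND and 27.1, 33.7 and 19.1 CPM in CTRL (edgeR adjusted p = 0.415). On day 6 the wells overlapped too, with means of 67.1 CPM in IND and 77.4 CPM in CTRL. The day 6 log2 fold change of IRX3 was -0.20 and was not called (edgeR adjusted p = 0.864).

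On day 10 the calls of IRX3 and IRX5 depended on the test and on replicate 2 of IND. IRX3 was at 50.8, 109 and 47.4 CPM in IND against 29.99, 28.5 and 29.1 CPM in CTRL. IRX5 was at 9.24, 14.6 and 6.61 CPM in IND against 4.48, 4.45 and 6.14 CPM in CTRL. Neither gene overlapped between the groups, as for 31.3% of all genes that day, and neither was called (edgeR log2 fold changes 1.29 ± 0.35 and 1.05 ± 0.34, adjusted p = 0.142 and 0.212). With all wells kept, DESeq2 called IRX3 (1.28, adjusted p = 0.00835), and the single edgeR fit over all 33 libraries called IRX3 and IRX5 (1.28 and 1.04, adjusted p = 0.00315 and 0.0124). Without replicate 2, which held the highest value of each gene, the log2 fold changes were smaller, at 0.76 for IRX3 and 0.66 for IRX5, and both were called (edgeR adjusted p = 1.28e-05 and 0.0294). The share of all genes called that day went from 2.03% to 18.2% without this library.

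The chromosome 5 genes were called lower or not at all. IRX2 on day 6 was at 33.04, 30.6 and 30.9 CPM in IND against 52.9, 35.8 and 51.9 CPM in CTRL. The wells did not overlap, as for 18.8% of all genes that day, and the log2 fold change was -0.57 ± 0.14 (edgeR adjusted p = 0.0281), a call lost in 6 of 13 alternatives, among them leaving out CTRL replicate 1 or 3 or IND replicate 2 or 3. On the later days IRX2 was not called, with log2 fold changes from -0.39 on day 10 to -0.13 on day 14, although it was on day 8 without the filter on low counts (-0.33, edgeR adjusted p = 0.0123). Its wells did not overlap on days 10 and 12, as for 31.3% and 30.4% of all genes. Without day 10 IND replicate 2 it was called lower on day 10 (-0.31, edgeR adjusted p = 0.0337), where 18.2% of all genes were called.

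IRX1 on day 14 was at 5.38, 5.31 and 4.65 CPM in IND against 7.92, 13.0 and 6.55 CPM in CTRL. All IND wells lay below all CTRL wells, as wells did not overlap for 26.7% of all genes that day. The log2 fold change was -0.84 ± 0.23 (1.79-fold lower, edgeR adjusted p = 0.0433). Without CTRL replicate 2, the highest well, it was -0.50 (adjusted p = 0.169), and the call was also lost without CTRL replicate 1 or any one of the IND wells. Limma on log2(FPKM + 1) and the single edgeR fit over all 33 libraries lost it as well (adjusted p = 0.118 and 0.124). On day 6 IRX1 was at 2.89, 3.09 and 3.66 CPM in IND against 5.70, 3.75 and 6.92 CPM in CTRL. The wells did not overlap, as for 18.8% of all genes that day, and the difference of -0.76 ± 0.24 was not called (edgeR adjusted p = 0.0998). It was called without CTRL replicate 2 (-0.97, edgeR adjusted p = 0.0203), by DESeq2 (adjusted p = 0.0463) and without the filter on low counts (adjusted p = 0.0323). IRX1 was called on no other day, and its day 10 difference was -0.26 with and -0.01 without IND replicate 2.

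IRX6 passed the filter for IND against CTRL on day 14 only. It had 25, 12 and 33 counts in IND and 15, 11 and 15 counts in CTRL, and its wells overlapped in CPM (edgeR log2 fold change 0.29 ± 0.48, adjusted p = 0.788). IRX4 had 0 counts in all 3 wells of day 14 IND and 4, 2 and 0 counts in day 14 CTRL, a difference that was not detectable at this depth.

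**Figure D3:**
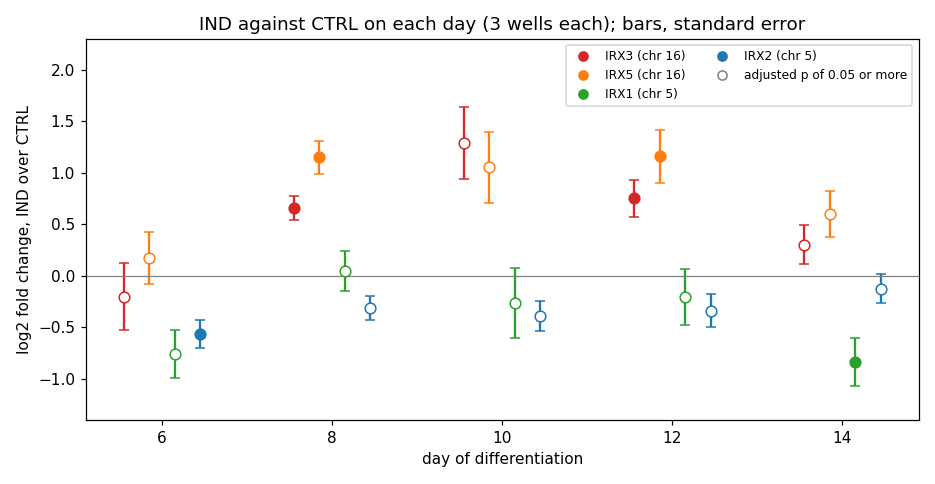
Log2 fold change of IND over CTRL (y axis, edgeR) for IRX3, IRX5, IRX1 and IRX2 on each day (x axis), with bars of 1 standard error and filled points where the adjusted p was under 0.05. The chromosome 16 genes IRX3 and IRX5 lie above 0 from day 8 on, and IRX2 lies below 0 on all 5 days.

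Whether the effect of induction changed with the day was tested as an interaction over the 5 days. No member passed (edgeR adjusted p = 0.182 for IRX3 and from 0.443 to 0.956 for the others), and 1 member, IRX3, had an unadjusted p under 0.05 (0.0106). DESeq2 called IRX3 (adjusted p = 0.0439). The interaction was called for 2.38% of all genes.

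Set against day 4, the IND wells showed where each gene stood after the combined treatment. IRX2 was lower than day 4 on all 5 IND days, from a log2 fold change of -0.84 ± 0.22 on day 6 (edgeR adjusted p = 0.0201) to -1.54 ± 0.24 on day 12 (edgeR adjusted p = 0.000624). IRX3 was lower on days 6, 8, 12 and 14, from -0.78 ± 0.25 (edgeR adjusted p = 0.0445) to -1.85 ± 0.21 (edgeR adjusted p = 6.98e-05), and without day 10 IND replicate 2 on day 10 as well (-1.27, adjusted p = 0.00638, with 35.3% of all genes called) or in the single fit over all 33 libraries (-0.75, adjusted p = 0.0315). On day 6 the call of IRX2 was lost without day 4 replicate 1 or any one of the IND wells, and the call of IRX3 without day 4 replicate 1 or 3 or IND replicate 2 or 3. The call of IRX2 on day 8 was lost without day 8 IND replicate 1 (adjusted p = 0.0619). IRX5 was called on no day, with log2 fold changes between -0.24 and -0.01 and standard errors of 0.16 to 0.32, and with -0.39 on day 10 without IND replicate 2. These comparisons share the day 4 wells with those of CTRL, and 26.5%, 35.8%, 21.6%, 37.1% and 50.6% of all genes were called on days 6, 8, 10, 12 and 14. IRX1 was not called either, except on day 14 without day 4 replicate 3 (0.65, edgeR adjusted p = 0.0277). IRX6 was called higher on day 14, at least 5.36-fold, and did not pass the filter without IND replicate 3. Here too it passed the filter only through its day 14 wells, so the call is not independent support. No member was called between neighbouring IND days by edgeR, where 3 had an unadjusted p under 0.05, nor by DESeq2; 10.7%, 0%, 0% and 2.7% of all genes were called on these 4 steps.

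Ordered by mean level, the IRX5 groups after day 4 fell with all IND above all CTRL, and uninduced day 4 stood among the IND groups. The 5 IND groups and day 4 held the 6 highest means, from 8.59 to 10.1 CPM, and the CTRL groups the 5 lowest, from 4.34 to 7.62 CPM, although every neighbour in this order overlapped in range. IRX3 was ordered from day 4 (114 CPM) to day 12 CTRL (24.7 CPM), and among neighbours only day 8 IND and day 12 IND did not overlap. For IRX2 the order ran from day 4 (55.4 CPM) to day 12 IND (19.8 CPM), and only day 8 CTRL and day 6 IND did not overlap. IRX1 ran from day 14 CTRL (9.15 CPM) to day 6 IND (3.21 CPM), with every neighbour overlapping.

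The clusters were then compared within each library, as the log2 ratio of the summed FPKM of IRX3, IRX5 and IRX6 to that of IRX1, IRX2 and IRX4, in which the scaling of the library cancels. On day 4 the chromosome 16 genes were ahead by 1.21 ± 0.09 (SD, n = 3). In CTRL the ratio was 0.78 ± 0.14 on day 6 and 0.14 ± 0.11 on day 8, and it was -0.19 ± 0.17 on day 14. In IND it was 1.20 ± 0.39 on day 6, 1.10 ± 0.14 on day 8, 1.57 ± 0.92 on day 10, 1.06 ± 0.27 on day 12 and 0.54 ± 0.08 on day 14. The wells of IND and CTRL overlapped on day 6 and on no later day.

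The ratio was higher in IND by 0.42, 0.97, 1.52, 1.12 and 0.73 on days 6, 8, 10, 12 and 14. With 3 wells against 3, a two-sided exact permutation test cannot go below p = 0.1, which it gave on days 8 to 14 (p = 0.2 on day 6). On day 10 the wells of IND were at 1.03, 2.64 and 1.05, and without replicate 2 the difference was 0.99. Averaged over the 5 days the ratio was 0.95 higher in IND, or 1.94-fold, and 0.85 higher without that library.

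Ratios of single genes are given as a description. Averaged over the 5 days, the log2 ratio of IRX3 to IRX2 was 0.89 higher in IND and that of IRX5 to IRX1 1.22 higher, or 0.79 and 1.08 without day 10 IND replicate 2. Within chromosome 5, the log2 ratio of IRX1 to IRX2 was higher in IND by 0.36 on day 8 and lower on day 14, at -0.66. Wells did not overlap on either day (exact permutation p = 0.1 each, the lowest that 3 wells against 3 allow). On days 6, 10 and 12 its wells overlapped. Averaged over the 5 days the difference was -0.05, or -0.002 without day 10 IND replicate 2. Whether the difference in this ratio changed between days was not tested. Within chromosome 16, the log2 ratio of IRX3 to IRX5 was lower in IND on 4 days, by a difference of -0.50 on day 8 and -0.32 on day 14, and its wells overlapped on days 6 and 10. On day 10 it was 0.18 higher, or 0.09 without IND replicate 2.

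**Figure D4:**
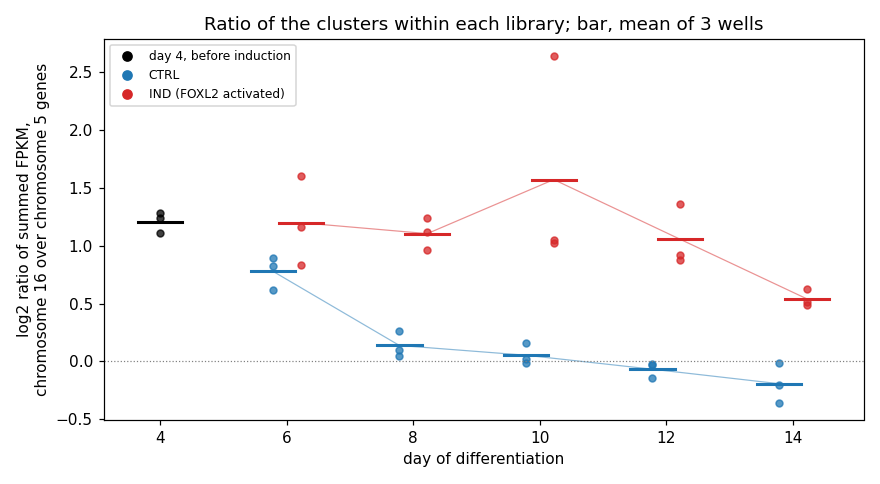
Log2 ratio of the summed FPKM of the chromosome 16 genes to that of the chromosome 5 genes in each library (y axis) against the day of differentiation, with 1 point per well in day 4 (black), CTRL (blue) and IND (red) and a bar at the mean of 3 wells. The CTRL means fall from 0.78 to -0.19, and from day 8 on every IND well lies above every CTRL well of its day.

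Across the 11 group means, IRX3 followed IRX5 with Pearson's r = 0.653 and IRX2 with r = 0.589, and without day 10 IND replicate 2 these were 0.633 and 0.679. Over the 6 groups without induction, the correlation of IRX3 was 0.972 with IRX2 and 0.86 with IRX5. IRX1 ran against IRX3 (r = -0.616 over 11 groups). These points share the wells and the time course and are given as a description. The genes whose group means were most like those of IRX3 among 13816 searched were ADRA2C (r = 0.983), ANAPC11, PARL, FN3KRP and APLNR. For IRX2 they were NUDT11 (r = 0.982), NT5C2, ADCY3, CDCA7 and AP5M1, for IRX5 CABLES1 (r = 0.957), EPDR1, DHRS4L2, STOM and HLA-C, and for IRX1 PRMT8 (r = 0.954), NCAN, FGFBP3, MMP24 and KIRREL3. By rank correlation, 3 of the 5 remained for IRX1 and 1 each for IRX2, IRX3 and IRX5. Without day 10 IND replicate 2, 4 of the 5 remained for IRX1 and for IRX2, 2 for IRX3 and 3 for IRX5.

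The partners next to the Iroquois genes were measured as well. CRNDE, beside IRX5, was at 37.0, 33.9 and 39.2 CPM in day 14 IND against 25.2, 23.1 and 27.1 CPM in CTRL. Its wells did not overlap, as for 26.7% of all genes that day, and it was called higher (edgeR log2 fold change 0.55 ± 0.10, adjusted p = 0.00444). IRX5 differed by 0.60 ± 0.22 that day, and the difference between the pair was not tested. On day 8 CRNDE differed by 0.16 ± 0.13 (edgeR adjusted p = 0.459). C5orf38, beside IRX2, was called on no day, and its day 6 difference was -0.55 ± 0.22 (edgeR adjusted p = 0.267).

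Of the genes within 1000000 bases of the chromosome 16 cluster, 4 of 17 tested were called on day 6 (1 higher, 3 lower), against 3.66% of all genes. On day 8, 4 of 17 were called (1 higher, 3 lower), against 14.2% of all genes, and on day 12, 3 of 18 (2 higher, 1 lower), against 5.42%. On day 10, 1 of 18 was called, against 2.03% of all genes, and on day 14, 1 of 15, against 8.43%, higher each time. The same daily shares of all genes stand beside the chromosome 5 counts that follow. Near the chromosome 5 cluster, none of 20 tested was called on day 6 and none of 19 on day 10, 1 of 18 was higher on day 8, 1 of 17 was lower on day 12 and 2 of 17 were lower on day 14. Without day 10 IND replicate 2, 6 of 19 near chromosome 16 and 4 of 20 near chromosome 5 were called on day 10, against 18.2% of all genes. GNAO1, a G protein subunit gene beyond IRX6, averaged 15.3 CPM in day 10 IND and 2.94 CPM in CTRL (edgeR log2 fold change 2.41 ± 0.25, adjusted p = 0.0101, and 2.51 without IND replicate 2), and CES1, a carboxylesterase, 3.31 and 0.561 CPM on day 6 (2.57 ± 0.33, adjusted p = 0.000227). SLC6A2, the noradrenaline transporter gene, was lower, at 1.15 CPM in day 8 IND and 5.33 CPM in CTRL (-2.18 ± 0.32, adjusted p = 0.00146). Near chromosome 5, SLC6A3, the dopamine transporter gene, was at 1.34 CPM in day 14 IND and 6.65 CPM in CTRL (-2.32 ± 0.37, adjusted p = 0.00287).

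Most other TALE genes did not pass the test or were lower. On day 8, 4 of 12 tested were lower, 1 was higher and 7 did not pass, against 14.2% of all genes called. Their median log2 fold change was -0.17, against 0.00 for all genes. The lower ones included MEIS2 (170 CPM in IND, 237 CPM in CTRL) and MEIS3 (154 and 195 CPM), which encode cofactors of HOX proteins, and PKNOX1. The higher one was MKX, the TALE gene most like the Iroquois genes, at 1.17, 1.72 and 0.528 CPM in IND and 0.245, 0.534 and 0.187 CPM in CTRL (edgeR log2 fold change 1.80 ± 0.52, adjusted p = 0.0402), wells that overlapped narrowly. On day 10, PBX3 was lower, at 107 CPM in IND and 269 CPM in CTRL (-1.30 ± 0.15, edgeR adjusted p = 0.0138, and -1.16 without IND replicate 2).

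Since Iroquois genes are also expressed in nerve, heart, kidney and limb cells, markers of those cells are given beside them. The neuron markers were lower in IND. Of 8 tested, 5, 4, 6 and 6 were lower on days 8, 10, 12 and 14 and none higher. Of all genes, 14.2%, 2.03%, 5.42% and 8.43% were called on those days. Without day 10 IND replicate 2, 6 markers were lower on day 10, against 18.2% of all genes called. The summed level of the neuron markers was 415.8 to 724 CPM in day 14 CTRL and 299.9 to 367 CPM in day 14 IND, when IRX1 was called lower. This sum was also lower in IND without overlap on days 8, 10 and 12, when IRX1 was not called (edgeR log2 fold changes 0.048, -0.26 and -0.21). On day 12 the sum was 285 to 522 CPM in CTRL and 136 to 218 CPM in IND. On day 6 the sums overlapped. Of the cardiomyocyte markers, MYL7 and TNNT2 were lower on day 8, 2 of 5 tested, against 14.2% of all genes called. The summed level of the cardiomyocyte markers that day was 209.6 to 284 CPM in CTRL and 102 to 112 CPM in IND. MYL2, a defining ventricular marker, was at 0.0265 CPM at most. Of 10 neural progenitor markers, at most 1 was called on any day, and the summed levels of CTRL and IND overlapped on every day.

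The summed level of the nephron markers was 80.8 to 109 CPM on day 4, 21.8 to 39.2 CPM in day 8 CTRL and 40.7 to 74.6 CPM in day 8 IND. On day 10 it was 12.6 to 23.4 CPM in CTRL and 29.03 to 42.4 CPM in IND, a range that holds without replicate 2, and on day 12 it was 13.3 to 21.4 CPM in CTRL and 23.4 to 31.0 CPM in IND. The groups did not overlap on days 8, 10 and 12, when IRX3 and IRX5 were also higher in IND without overlap. On day 14 the nephron sum was 12.0 to 15.5 CPM in CTRL and 9.69 to 15.3 CPM in IND. On day 8, CUBN was higher and LHX1 lower, and 3 of 5 tested did not pass. Of all genes, 14.2% were called that day, which is also the share to set beside the day 8 counts that follow. Of the coelomic epithelium and mesothelium markers, 5 of 7 tested were lower on day 8 and none higher, with WT1 at 16.1 CPM in IND and 81.3 CPM in CTRL. Of the supporting gonadal and granulosa markers, 4 of 8 tested were higher on day 8 and 1 lower. KITLG, higher, was at 82.0 CPM in IND and 50.3 CPM in CTRL, and RSPO1, lower, at 8.57 and 20.3 CPM. Of the limb and lateral plate mesoderm markers, 3 of 7 tested were lower on day 8 and 1 higher, and their summed level was 559 to 611 CPM in CTRL and 272 to 481 CPM in IND. The part of such cells in the levels of the Iroquois genes was not tested.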

How the data were processed

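Poly(A) RNA-seq libraries, not strand-specific, were made from 33 wells in 11 groups of 3. The authors had reads trimmed with fastp (0.23.2), mapped with HISAT2 (2.0.5) to GRCh38 and counted per gene with featureCounts (1.5.0-p3), and deposited raw counts and FPKM. The deposited FPKM equalled counts per length and library total times a constant of 0.943 to 1.12 per library. Columns of the authors' own comparisons were not used.

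Groups came from the sample labels. Counts were tested on all genes of each pair of groups with edgeR (4.0.16; filterByExpr, TMM, robust quasi-likelihood), and p-values were adjusted over all genes tested. A gene was called at an adjusted p under 0.05. CPM used TMM over the 33 libraries. A level of 3 counts, the limit a count of 0 allows, was 0.0574 to 0.126 CPM and covers counting error only. FPKM ratios of the clusters were compared by exact permutation of wells. Scripts were tested on simulated data.

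Alternatives were DESeq2 (1.42.0), RLE factors, no filter, a mean of at least 50 counts, 1 fit over 33 libraries, limma (3.58.1) on log2(FPKM + 1), a replicate block and leaving out each library. The members and lists (other TALE genes, genes within 1000000 bases, markers of 7 cell types) were chosen with earlier results of these data known. Named from those lists were up to 5 called genes each, not overlapping between groups, with a mean of at least 1 CPM, by size of change. MKX was named as the TALE gene nearest to Iroquois. The 5 most similar genes of a member were those of highest Pearson correlation over the 11 group means.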

Additional observations from a re-analysis of the deposited data

How the results depend on the processing

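The calls of members were recounted under each alternative. IND against CTRL gave 6 calls, 2 by limma on log2(FPKM + 1), and 4 to 9 when 1 library was left out. CTRL steps gave 4 calls, 1 in a single fit over all 33 libraries, and 1 to 6 when 1 library was left out. The interaction gave 0 calls by edgeR, 1 by DESeq2 and 1 without the filter on low counts, IRX3 each time (adjusted p = 0.0439 and 1.01e-08). Leaving out 1 library turned the sign of 4 differences that were not called: IRX5 on day 6 (-0.18 to 0.35), IRX1 on day 8 (-0.12 to 0.13) and day 12 (-0.43 to 0.068), and IRX2 on day 14 (-0.26 to 0.024). The 4 differences of IRX3 or IRX5 on days 8 and 12 kept their sign under every alternative run. The 5 daily cluster ratios also kept their sign in each of their 8 alternatives.

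Well numbers did not pair the samples: over 15 pairs of same-numbered CTRL and IND wells the deviations correlated between -0.271 and 0.24, 4 of them over 0.1. With the replicate number as a block, the calls were 7 for IND against CTRL (6 without it), 14 for CTRL against day 4 (13), 9 for IND against day 4 (10), 4 for CTRL steps (4), 0 for IND steps (0) and 0 for the interaction (0). The block gained IRX5 on day 14 for IND against CTRL (0.65, edgeR adjusted p = 0.0461), and IRX3 on day 6 and IRX2 on day 8 for CTRL against day 4 (adjusted p = 0.00504 and 0.025). It lost IRX5 on day 14 for CTRL against day 4 and IRX3 on day 6 for IND against day 4 (adjusted p = 0.0582 and 0.0675).

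Wells of one differentiation in one clone limit every p-value. IRX4 and IRX6 were too rare for most tests.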
